A study of Mus musculus with 27 samples.

Results

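Transfer RNA (tRNA) genes were 434 of the 74671 features in the deposited tables of small RNA bound to MIWI and of long RNA from sorted mouse germ cells. They were taken as the rows that are neither an Ensembl gene, a repeat nor a piRNA cluster. Each row is named by chromosome, number, amino acid and anticodon, and the 434 rows carried 52 anticodon names and 22 amino acid names, among them selenocysteine and a suppressor. MIWI, the protein of Piwil1, is a PIWI-clade Argonaute of the mouse testis. The design sets gene expression in mice with a tagged MIWI beside that of wild type (WT) mice, and looks at the small RNAs that the purified protein holds. Long RNA came from 18 libraries, with 3 libraries each for 1n cells (spermatids) and 4n cells (spermatocytes) of WT, Strep1 and Strep2 mice. Small RNA came from 5 libraries of MIWI purified from the testes of Strep1 mice.

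Strep1 and Strep2 are knock-in lines with a Strep II tag of 8 amino acids inserted near the N-terminus of MIWI, at a different place in each line. By genotype label Strep1 is RP68 and Strep2 is RP85. The growth protocol speaks of RP85 and RP86 instead, so which insertion each line carries is not settled, and groups follow the genotype label. Every sequenced purification was of tagged protein, and no input or untagged library was used here, so the levels below are levels within the purified RNA and not enrichment. The labels do not say whether replicates came from separate animals, and p-values then measure the spread between libraries, which may be technical. About 500000 sorted cells gave each long RNA sample, and 100 ng of total RNA went into a stranded kit with ribosomal RNA removal. Library names place 1n WT and 1n Strep2 in one library series, and 1n Strep1 with all 4n libraries in another. Among the purifications, replicate 1 is of one series and replicates 2 to 5 of another.

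A tRNA is transcribed by RNA polymerase III, trimmed at both ends, modified and charged with its amino acid by a synthetase, and its anticodon then reads the matching codon on the ribosome. Endonucleases can also cut mature tRNAs into fragments, and fragments of this kind are abundant in sperm and in the epididymis. Piwi proteins mainly bind piRNAs, which in the testis come from long precursor transcripts and usually begin with uridine.

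Sequences of 4 rows on which the small RNA results turn are given first: the alanine row, a glutamate row with the anticodon TTC, a histidine row and the aspartate row read on the antisense strand. They were read from GRCm39, the build the labels name, as the tRNA strand runs 5′ to 3′, without the base at the listed end coordinate, which lies outside the tRNA. The anticodon is in capitals.
chr4.tRNA622-AlaCGC: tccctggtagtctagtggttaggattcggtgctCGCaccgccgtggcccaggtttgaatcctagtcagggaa
chr14.tRNA352-GluTTC: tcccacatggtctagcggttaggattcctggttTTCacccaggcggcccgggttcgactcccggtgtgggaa
chr3.tRNA291-HisGTG: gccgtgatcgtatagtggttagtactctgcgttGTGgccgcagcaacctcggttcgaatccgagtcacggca
chr1.tRNA1008-AspGTC: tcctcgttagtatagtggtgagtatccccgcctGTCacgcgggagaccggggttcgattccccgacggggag

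These 4 rows lie at chr4:131852570-131852642 on the plus strand, chr14:76390214-76390286 (plus), chr3:96317385-96317457 (plus) and chr1:170892927-170892999 (minus). Dropping the end base brought the number of distinct sequences among the rows from 342 to 250, and 242 rows shared their sequence with at least 1 other. The anticodon in the name was found at the anticodon position of all 434 rows. By GENCODE annotation 228 rows lie outside genes, 37 in an exon and 84 in an intron of a gene on the same strand, and 15 in an exon and 70 in an intron of a gene on the opposite strand. None lies in a listed piRNA cluster, the nearest being 6627 bases away.

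In the RNA held by MIWI, tRNA rows were a small share, and nearly all of it was glutamate tRNA read on the sense strand. The 434 rows summed to 946, 1265, 1117, 1019 and 1174 RPM (reads scaled to a common library total) on the sense strand in purifications 1 to 5, with a mean of 1104 ± 126 RPM (SD, n = 5). That was 0.138% to 0.174% of the RPM over all rows of a library. Glutamate rows held 953 ± 108 RPM (SD, n = 5), which was 86.3% of the tRNA total, although they are 21 of the 434 rows, or 4.84%. Alanine followed with 78.2 ± 16.4 RPM, histidine with 48.6 ± 12.6 and lysine with 11.5 ± 2.75 (SD, n = 5). Glutamine came next with 3.18 ± 1.16 RPM, and 123 rows were at 0 in every purification.

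**Figure D1:**
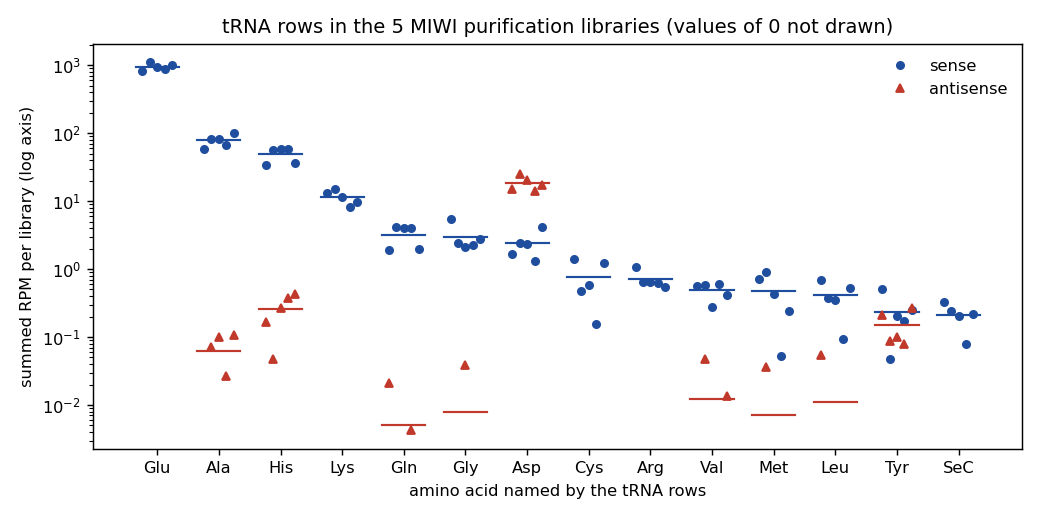
Summed RPM of tRNA rows, for the 14 amino acids of highest sense level, in the 5 MIWI purifications, on a log axis. Each point is 1 library, circles for the sense and triangles for the antisense strand, and bars are means. Glutamate stands at 825 to 1098 RPM on the sense strand in each library, and aspartate stands higher on the antisense than on the sense strand, with means of 18.4 and 2.39 RPM.

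Glutamate tRNA with the anticodon CTC, which reads the GAG codon, gave most of the signal through 1 sequence. Its 9 identical rows together held 786, 1021, 868, 796 and 924 RPM in the 5 purifications, a mean of 879 ± 97.3 RPM (SD, n = 5) and 79.6% of the sense tRNA total. Libraries 1 and 4 were the lowest and library 2 the highest. The row chr3.tRNA745-GluCTC alone read 92.5, 120.1, 102, 93.7 and 109 RPM. The other copies of highest level were chr11.tRNA1912-GluCTC, chr13.tRNA1013-GluCTC, chr1.tRNA1004-GluCTC, chr1.tRNA1007-GluCTC, chr1.tRNA1010-GluCTC, chr1.tRNA709-GluCTC and chr3.tRNA303-GluCTC, each with a mean of 103 RPM. The ninth, chr10.tRNA90-GluCTC, read 46.2, 60.1, 51.0, 46.8 and 54.3 RPM, a mean of 51.7 ± 5.72 (SD, n = 5). So 8 copies had near-equal values and 1 copy was lower, the highest copy standing at 2.00 times the lowest. That ratio was also 2.00 among identical copies of a glutamate TTC and of a lysine CTT sequence, and 1.01 among those of the histidine sequence. How reads matching several copies were shared is not given, so the difference between copies is not read. The summed level is used below as that of the common glutamate sequence.

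The second sequence was that of chr4.tRNA622-AlaCGC, a row named for alanine that lies in an intron of the opioid receptor gene Oprd1, on the other strand. It read 56.8, 81.2, 81.2, 65.9 and 99.98 RPM, a mean of 77.0 ± 16.5 (SD, n = 5), and so made up nearly all of the alanine total. Its 5 values lay between 7.23% and 10.8% of the summed common glutamate sequence in the same library. Of its 72 bases 9 differ from the common glutamate sequence. The next alanine rows, chrX.tRNA366-AlaTGC and chrX.tRNA368-AlaTGC, had means of 0.153 RPM. In long RNA chr4.tRNA622-AlaCGC was at 0 in all 18 libraries.

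Rows close to the common glutamate sequence were not all at a like level. The row chr17.tRNA719-GluCTC differs from it at 2 bases and read 1.25, 2.36, 1.75, 1.43 and 2.32 RPM, a mean of 1.82 ± 0.507 (SD, n = 5). The identical rows chr3.tRNA286-GluTTC and chr3.tRNA754-GluTTC, which also differ at 2 bases, each read 1.71, 1.82, 1.61, 1.43 and 1.45 RPM, a mean of 1.60 ± 0.170. At 6 differences chr12.tRNA892-GluCTC had a mean of 0.0096 RPM, and at 9 differences chr7.tRNA969-GluCTC had 0.086 RPM. The glutamate rows with 15 differences, whose anticodon TTC reads the GAA codon, stood higher. The rows chr14.tRNA352-GluTTC and chr13.tRNA105-GluTTC, at 8.23 ± 2.24 and 16.5 ± 4.47 RPM (SD, n = 5), are identical in sequence. That sequence has 4 copies, which together held 41.1 RPM, so the range is one among copies. Another such sequence, that of chr14.tRNA364-GluTTC, held 27.2 RPM in 2 copies. In the 5 purifications chr14.tRNA352-GluTTC read 4.41, 8.35, 9.49, 8.74 and 10.1 RPM, with replicate 1, the library of the other series, below the rest.

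**Figure D2:**
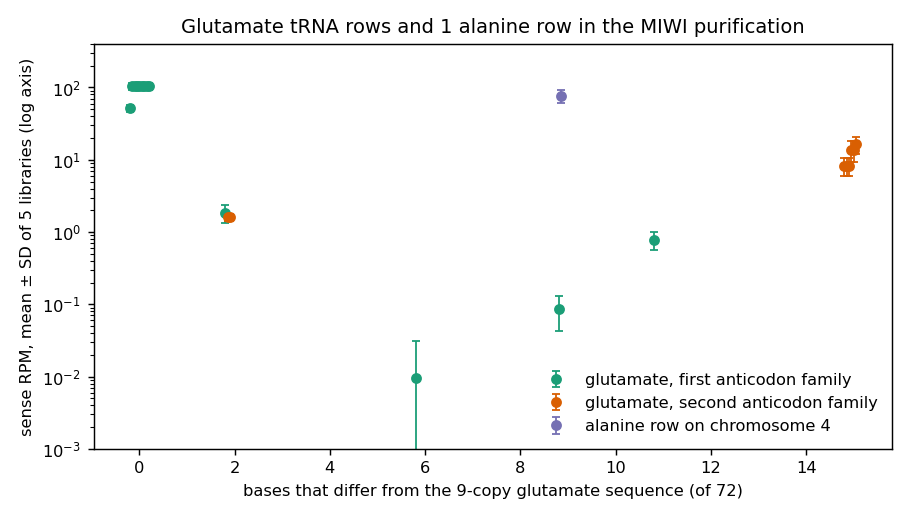
Sense RPM in the MIWI purifications, as mean ± SD of 5 libraries on a log axis, of the 21 glutamate rows and of the alanine row on chromosome 4, against the number of bases by which each differs from the 9-copy glutamate sequence. Points at one number are spread sideways, a lower bar is cut off at the axis where the SD exceeds the mean, and the green and orange rows carry the anticodons CTC and TTC. Rows with 2 differences lie near 1.6 to 1.8 RPM, below the alanine row with 9 differences at 77.0 RPM and the rows with 15 differences.

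Histidine tRNA was the third source. Its 8 identical rows with the anticodon GTG had means of 5.57 to 5.61 RPM each, and chr3.tRNA291-HisGTG read 3.81, 6.53, 6.62, 6.74 and 4.13 RPM. Libraries 2 to 4 were higher than 1 and 5, a grouping that does not follow the library series. Glycine and aspartate rows summed to 3.01 ± 1.39 and 2.39 ± 1.11 RPM (SD, n = 5). Cysteine, the amino acid with the most rows at 57, summed to 0.767 ± 0.530 RPM.

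Rows whose first base is T, which is U in the RNA, were 40 of 434 (9.22%) and held 93.5% of the sense tRNA RPM. This share rests on the glutamate rows and chr4.tRNA622-AlaCGC. Without them, rows beginning with T held 3.23% and rows beginning with G 95.8% of the remaining RPM. The tables give 1 value per row and no read positions, so which part of a tRNA the reads covered, and their length, were not analysed here.

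On the antisense strand the tRNA rows held little of the RNA bound to MIWI. The rows summed to 14.4 to 25.4 RPM, and the sense sum was 49.7 to 70.7 times the antisense sum within a library. Of the antisense sum 97.0% lay in 3 rows on chromosome 1 that are named for aspartate. Of these chr1.tRNA1008-AspGTC read 5.10, 8.28, 6.89, 4.62 and 5.79 RPM antisense and 0 RPM sense, and chr1.tRNA1002-AspGTC and chr1.tRNA1005-AspGTC had the same mean of 6.13 RPM. Their sequence is that of 13 rows, and the other 10 copies were at 0 on the antisense strand. Whether these antisense reads lie within the tRNA or reach into sequence beside it was not tested. The row chr1.tRNA1008-AspGTC lies in an exon of Fcgr3 by annotation. The next rows were chr4.tRNA1691-HisGTG at 0.132 RPM and chr5.tRNA109-TyrGTA at 0.119 RPM, and 396 rows were at 0 in every purification.

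The strands were also compared within libraries with limma on log2(RPM + 0.1). Of 51 tRNA rows tested 48 were higher on the sense and 3, the aspartate rows above, on the antisense strand at a false discovery rate of 0.05. A row entered this test by its level on either strand, and 42 of the 51 were at 0 on the antisense strand in every purification, so a difference was fixed by the filter and nothing is read from the count. Among all 11459 features tested 96.1% were called, 86.4% towards sense and 9.77% towards antisense. Leaving out 1 library gave 43 to 51 called rows. The rows chr3.tRNA745-GluCTC and chr4.tRNA622-AlaCGC are among those at 0 antisense, and no fold is given for them.

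In long RNA the tRNA rows were near the lower limit of measurement, and other rows led. Their sense sum was 6.32 to 23.0 RPM per library, at most 0.00294% of the RPM over all rows. Taking the commonest low value as 1 read, a library held an estimated 220 to 1001 tRNA reads, and 3 reads were worth 0.0475 to 0.0909 RPM. Of the 434 rows 148 were at 0 in all libraries and 3 had a mean of at least 1 RPM. Of the sense RPM 50.6% of the sense RPM lay in the 37 rows that overlap an exon of a gene on the same strand, whose reads cannot be told from those of the tRNA. Those rows held 1.50% of the sense tRNA RPM of the purifications.

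None of the 10 highest rows of the purifications was among the 10 highest in long RNA. Across the 434 rows Spearman's rho between the means was 0.141, a description over rows that share sequences and libraries. Identical copies could differ more in long RNA than in the purifications. The 8 identical histidine copies, with means of 5.57 to 5.61 RPM in the purifications, ranged from 0 to 0.356 RPM in long RNA. Of the 9 rows of the common glutamate sequence 4 were above 0 in long RNA, the highest at 0.191 RPM. The asparagine row chr3.tRNA289-AsnGTT was the highest of its 9 identical copies in long RNA, with 1.65 RPM against 0.106 RPM for the next copy. In the purifications it had 0.0749 RPM and the next copy 0.0170 RPM. Both lie under 3 reads, worth 0.145 to 0.249 RPM there, so their order is not read.

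**Figure D3:**
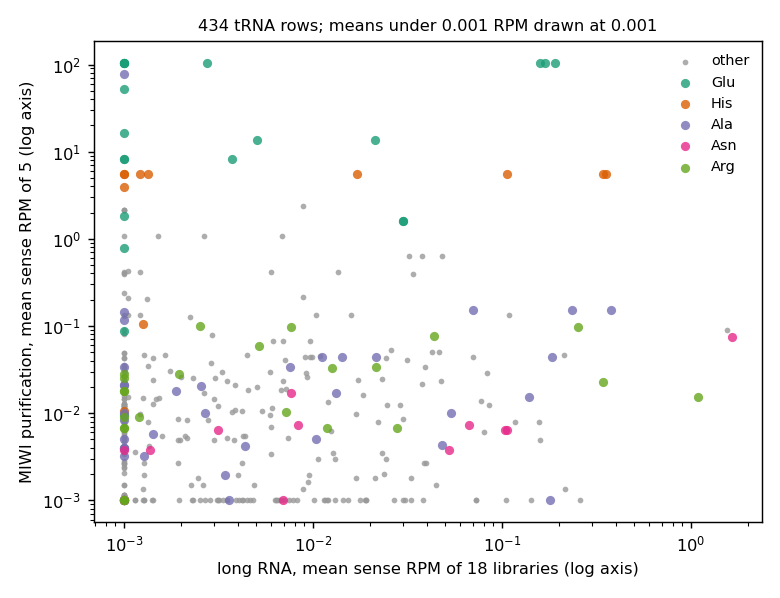
Mean sense RPM of each of the 434 tRNA rows in the 5 MIWI purifications against its mean in the 18 long RNA libraries, on log axes, with means under 0.001 RPM drawn at 0.001. Glutamate rows (green) fill the top and the asparagine and arginine rows that lead in long RNA lie under 0.1 RPM in the purifications.

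The tRNA sum was lower in spermatids than in spermatocytes in every genotype. In WT the sense sum was 7.07 ± 0.658 RPM in 1n and 15.0 ± 1.41 RPM in 4n cells (SD, n = 3), 2.12 times higher in 4n. Strep1 gave 6.69 ± 0.308 against 20.3 ± 2.44 RPM, 3.04 times, and Strep2 gave 6.69 ± 0.134 against 16.7 ± 1.90 RPM, 2.50 times. The 1n and 4n libraries did not overlap in any genotype, and the exact two-sided permutation p was 0.1 for each, the smallest that 3 against 3 libraries allow. The Strep1 comparison lies within 1 library series, whereas in the other genotypes the 1n and 4n libraries belong to different series, and population and series cannot be told apart there. Antisense sums differed likewise, from 5.64 ± 0.864 to 6.84 ± 0.644 RPM in 1n and from 12.6 ± 0.492 to 14.0 ± 1.40 RPM in 4n groups (exact permutation p = 0.1 in each genotype). In such bulk samples fewer cells of a type and less RNA per cell cannot be told apart.

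Markers matched the sort. The summed level of 8 spermatid genes was 3419 to 6196 RPM in 1n and 106 to 206 RPM in 4n libraries, and that of 8 spermatocyte genes was 1338 to 1638 RPM in 1n and 2223 to 3442 RPM in 4n libraries, so 1n libraries also held spermatocyte transcripts. All markers of both lists were above 0. Of other cells, 4 macrophage genes summed to 4.67 to 7.00 RPM in 1n and 0.381 to 0.736 in 4n, and 4 genes of peritubular and vessel cells to 11.8 to 17.2 in 1n and 2.30 to 3.93 in 4n. Sertoli genes (7) stood at 3.58 to 9.45 and 5.09 to 8.20 RPM, Leydig genes (5) at 0.716 to 3.30 and 1.14 to 1.96, and spermatogonial genes (6) at 8.87 to 14.6 and 6.20 to 10.5. The 2 globin genes were at most 0.0426 RPM. The part of these cells in the tRNA values was not tested.

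**Figure D4:**
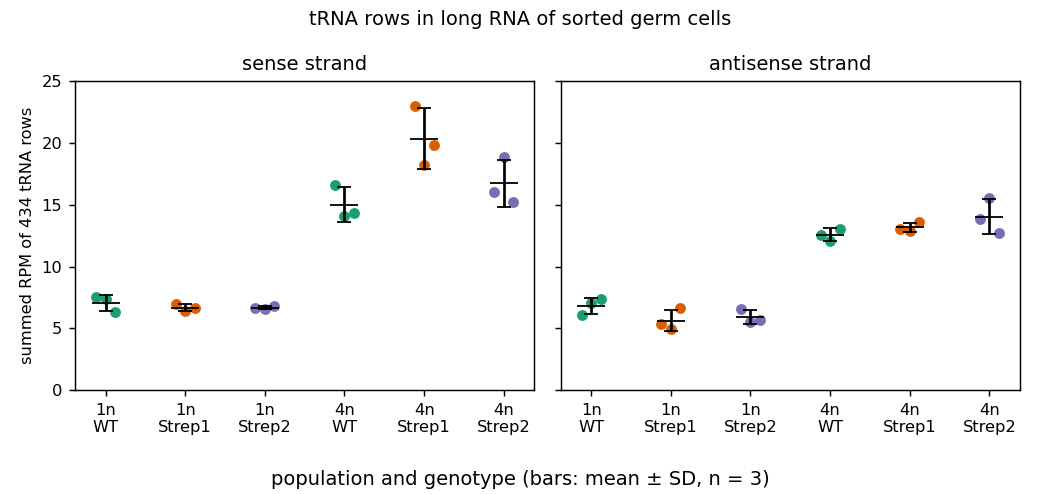
Summed RPM of the 434 tRNA rows in each long RNA library by population and genotype, sense on the left and antisense on the right. Points are libraries and bars are mean ± SD of 3. All 4n libraries, from 14.1 RPM upward on the sense strand, lie above all 1n libraries, which reach 7.53 RPM.

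By amino acid, 13 of the 22 sums had the higher mean in 4n cells in all 3 genotypes and 5 in 1n cells in all 3, with no test of these counts. Histidine, asparagine and glutamate had the lowest ratio of 1n to 4n in WT, among the 14 sums with both group means above 3 reads. Histidine rows summed to 0.144 ± 0.0750 RPM in 1n and 1.46 ± 0.0667 RPM in 4n cells of WT (SD, n = 3), a log2 ratio of -3.34, with -3.68 in Strep1 and -2.95 in Strep2. Asparagine went from 3.03 ± 0.267 RPM in 4n to 0.615 ± 0.0881 in 1n (log2 ratio -2.30), and glutamate from 0.721 ± 0.143 to 0.147 ± 0.0831 (log2 ratio -2.29). At the other end of these 14 sums stood methionine with 0.384 ± 0.166 RPM in 1n and 0.121 ± 0.0288 in 4n (log2 ratio 1.66). Next came aspartate (log2 ratio 0.56) and threonine, which was level (log2 ratio 0.0047). Methionine had the higher mean in 1n cells of Strep1 and Strep2 as well, with log2 ratios of 0.65 and 0.94, below valine in Strep2 at 1.60. Leucine in Strep1 (log2 ratio -2.47) and arginine in Strep2 (-2.41) were also among the 3 lowest of their genotype. Sums without a ratio in WT leaned either way. Valine had 0.293 RPM in 1n and 0.0393 in 4n, and isoleucine 0.395 and 0.0739 RPM. Lysine had 0.0357 RPM in 1n and 0.0899 in 4n.

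Single rows were tested with limma over all features of the strand table. Only 18 of the 434 rows passed the filter of 0.3 RPM in 3 libraries. A row that passed through one population alone had to differ, so the counts are given beside the background and nothing is read from them. For the same reason the p-values of such rows are not read. In 1n against 4n cells of WT the test called 16 rows, 3 of them upward and 13 downward, where 80.3% of 26925 features were called, 37.5% upward and 42.8% downward. Strep1 had 3 rows upward and 14 downward, beside 80% of all features, 38.3% upward and 41.7% downward. Strep2 also had 3 upward and 14 downward, beside 80.1%, with 38.6% upward and 41.5% downward. The median log2 change of the 18 rows was -1.25, -1.94 and -1.29 in WT, Strep1 and Strep2, and that of all features -0.15, -0.10 and -0.11. Scaling the libraries moved all features by -0.26, -0.18 and -0.11 on the log2 scale relative to the deposited RPM. Without that scaling the same numbers of rows were called within 1.

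The asparagine row chr3.tRNA289-AsnGTT, at chr3:96309534-96309608 in an exon of the lncRNA gene Gm26654, was the highest in long RNA. It read 0.363, 0.523 and 0.520 RPM in 1n and 2.70, 2.11 and 2.52 RPM in 4n cells of WT. In Strep1 it read 0.485, 0.532 and 0.561 against 3.02, 2.41 and 3.59 RPM, and in Strep2 0.451, 0.464 and 0.716 against 2.47, 3.64 and 2.67 RPM. No 1n library reached a 4n library. On the log2(RPM + 0.1) scale its change was -2.39 (SE 0.22, adjusted p = 2.33e-09) in WT, -2.45 in Strep1 and -2.33 in Strep2 (SE 0.22 each). The host Gm26654 had 1.17 RPM in 1n and 6.66 RPM in 4n cells of WT, so host and tRNA row moved alike, and the part of the host in the row's value was not tested.

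The arginine row chr3.tRNA1040-ArgACG, at chr3:19682123-19682196, fell the most. It read 0.215, 0.0872 and 0.0606 RPM in 1n WT and 2.29, 1.38 and 1.65 RPM in 4n WT. The Strep1 values lay between 0.1004 and 0.190 RPM against 2.04, 2.07 and 2.05 RPM, and those of Strep2 were 0.0879, 0.0947 and 0.136 against 1.83, 2.99 and 2.24 RPM. The log2 change was -3.27 in WT (SE 0.25), -3.31 in Strep1 and -3.59 in Strep2. All 1n values of this row lay under the filter of 0.3 RPM. It passed through 4n cells alone, so a difference was fixed by the filter and no p-value is given. It lies in an exon of the lncRNA gene 1700064H15Rik, itself at 0.329 RPM in 1n and 4.12 RPM in 4n cells of WT.

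The third row above 1 RPM was the mitochondrial leucine tRNA, chrM.tRNA1-LeuTAA, at bases 2676 to 2751 of the mitochondrial genome. Its interval is that of the Ensembl gene mt-Tl1 with 1 further base at the end, which is the first base of mt-Nd1, a subunit gene of respiratory complex I. It read 1.15, 0.860 and 0.982 RPM in 1n and 2.26, 1.86 and 1.85 RPM in 4n WT cells, with a log2 change of -1.17 (SE 0.25, adjusted p = 2.01e-04). In Strep2 the values were 0.368, 0.497 and 0.464 against 1.38, 1.44 and 0.832 RPM (log2 change -1.34), and in Strep1 0.587, 0.753 and 0.599 against 5.90, 3.18 and 2.98 RPM (log2 change -2.56). All groups were apart in each genotype, and the first 4n Strep1 library was the highest of all.

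Further rows among the 10 highest were lower in 1n cells at smaller levels. The histidine rows chr3.tRNA751-HisGTG and chr3.tRNA295-HisGTG, identical in sequence, had log2 changes of -2.53 and -2.49 in WT, -2.44 each in Strep1, and -2.38 and -2.32 in Strep2 (SE 0.24). In WT chr3.tRNA751-HisGTG read 0.0740, 0.0145 and 0.0260 RPM in 1n and 0.706, 0.544 and 0.657 RPM in 4n cells. Its 1n WT values lay under the filter of 0.3 RPM, and no p-value is read for it. The arginine row chr13.tRNA960-ArgTCG, in an exon of the lncRNA gene Gm11335, changed by -2.36, -2.40 and -1.98 in WT, Strep1 and Strep2 (SE 0.26). Its host stood at 1.15 RPM in 1n and 8.07 RPM in 4n WT cells. The serine row chr10.tRNA1105-SerTGA changed by -1.21 (SE 0.30) in WT. Neither this row nor chr13.tRNA960-ArgTCG passed the filter within 1n cells, and no p-value is read for them. The alanine row chrX.tRNA366-AlaTGC did not pass the test in WT (log2 change -0.17, SE 0.28, adjusted p = 0.576) and was called lower in 1n cells of Strep1 (-0.64, adjusted p = 0.0410) and Strep2 (-0.86, adjusted p = 0.00801). The row chrX.tRNA368-AlaTGC passed in no genotype, with log2 changes of 0.45, -0.31 and -0.43 in WT, Strep1 and Strep2 (SE 0.27, adjusted p = 0.123, 0.290 and 0.140).

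Rows higher in 1n cells were the same 3 in each genotype. The arginine row chr3.tRNA628-ArgTCT read 0.390, 0.465 and 0.243 RPM in 1n and 0.232, 0.113 and 0.174 RPM in 4n WT cells. Its log2 change was 0.58 (SE 0.22) in WT, 0.75 in Strep1 and 0.82 in Strep2. The 4n WT values of this row lay under the filter of 0.3 RPM, so its p-value is not read. Its WT groups nearly touched. It lies in an exon of the lncRNA gene Gm17494, which was also higher in 1n (8.12 against 4.19 RPM in WT). The serine row chr4.tRNA16-SerAGA and the methionine row chr13.tRNA99-MetCAT, chosen after their values were seen, rose by 1.62 (SE 0.24) and 1.42 (SE 0.30) in WT. In WT chr4.tRNA16-SerAGA read 0.188, 0.523 and 0.286 RPM in 1n cells and 0, 0.0308 and 0.0316 RPM in 4n cells. Its 4n WT values lay under the filter of 0.3 RPM, and no p-value is read for it. It lies in an exon of the miRNA gene Gm56194, at 0.452 RPM in 1n and 0.0208 RPM in 4n WT cells. All methionine rows together reached at most 0.250 RPM in a 4n library, so chr13.tRNA99-MetCAT passed the filter through 1n cells alone. For it too no p-value is read. The methionine row lies in an intron of the lncRNA gene 4930586N03Rik, at 8.35 RPM in 1n and 0.606 RPM in 4n WT cells. The part of these hosts in the rows' values was not tested.

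**Figure D5:**
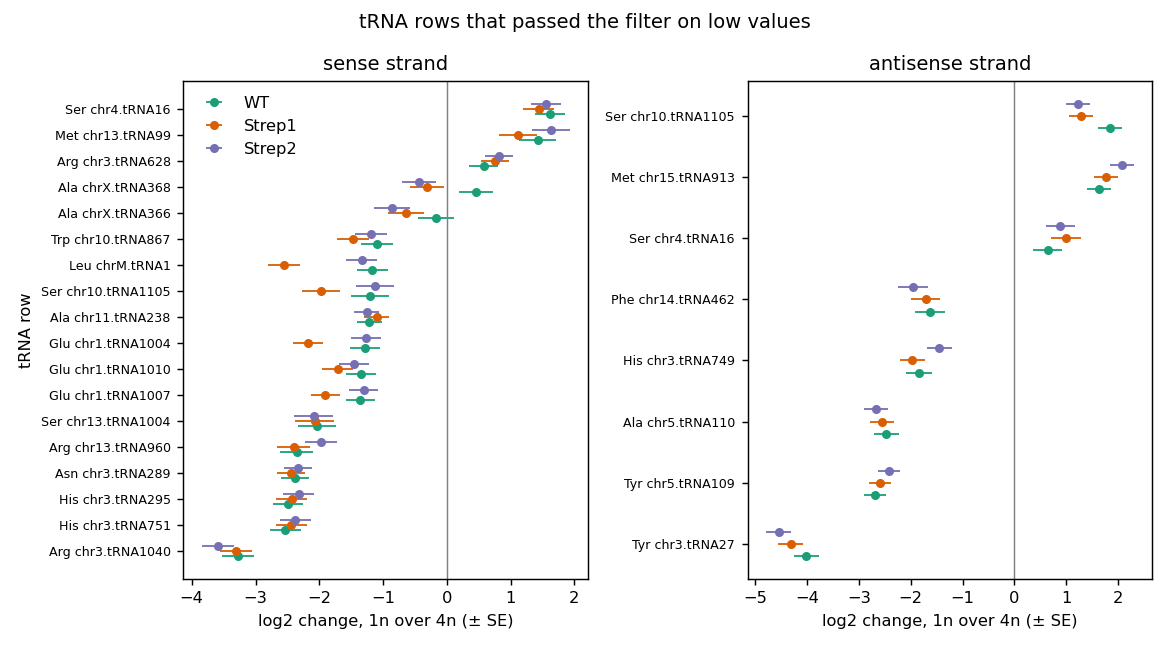
Log2 change, 1n over 4n, with its standard error, of the 18 tRNA rows on the sense strand (left) and the 8 rows on the antisense strand (right) that passed the filter, in WT, Strep1 and Strep2. Arginine chr3.tRNA1040 lies lowest on the sense strand at -3.27 to -3.59, and tyrosine chr3.tRNA27 lowest on the antisense strand at -4.01 to -4.55.

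On the antisense strand tyrosine tRNA rows led. The row chr5.tRNA109-TyrGTA, outside genes, read 0.451, 0.610 and 0.525 RPM in 1n and 3.46, 3.05 and 3.74 RPM in 4n WT cells. The row chr3.tRNA27-TyrGTA read 0.188, 0.0872 and 0.0866 RPM against 3.44, 2.78 and 3.43 RPM. Its neighbour on the genome is the arginine row chr3.tRNA1040-ArgACG, and both overlap exons of 1700064H15Rik, for the tyrosine row on the opposite strand. Antisense reads of this tyrosine row thus lie on the strand of that gene, which had 0.329 RPM in 1n and 4.12 RPM in 4n WT cells. The part of the gene in the row's value was not tested. Both tyrosine rows fell in 1n cells, with log2 changes of -2.68 (SE 0.21) and -4.01 (SE 0.24) in WT, as did chr5.tRNA110-AlaAGC (log2 change -2.47, SE 0.23). Of 8 rows tested all 8 were called in each genotype, 3 higher and 5 lower. Here too a row that passed the filter through one population alone had to differ, so nothing is read from the count. The 1n WT values of chr3.tRNA27-TyrGTA lay under the filter of 0.3 RPM. Beside this, 75.3% of all features were called in WT (32.7% higher, 42.7% lower), 74.5% in Strep1 (33.9% and 40.6%) and 74.3% in Strep2 (33.8% and 40.6%). The 3 higher rows, named after their values were seen, were chr10.tRNA1105-SerTGA, chr15.tRNA913-MetCAT and chr4.tRNA16-SerAGA, with log2 changes of 1.84, 1.63 and 0.64 in WT. So the serine row chr10.tRNA1105-SerTGA was lower in 1n cells on its own strand and higher on the other.

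Genes of RNA polymerase III, its factors, the synthetases and tRNA modification were mostly lower in 1n cells, beside 42.8% of all features lower in WT. End processing genes lay nearer that share in WT, with 10 of 19 lower, and cleavage genes below it, with 1 of 4. Of 13 RNA polymerase III subunits 9 were lower and 1 higher in WT, 11 and 1 in Strep1, and 11 and 1 in Strep2. In WT the log2 change was -2.47 (SE 0.14) for Polr3b and -1.96 (SE 0.12) for the largest subunit Polr3a, while Polr3f rose by 3.24 (SE 0.18). Among 12 factors of the polymerase, including TFIIIC and TFIIIB subunits, 9 were lower and 1 higher in WT, with log2 changes of -2.69 (SE 0.20) for Gtf3c6 and -1.70 (SE 0.11) for Brf1. Of 20 cytosolic synthetases tested 17 were lower and 1 higher. Asparagine synthetase Nars fell by 1.85 (SE 0.13) and tyrosine synthetase Yars by 1.65 (SE 0.12), and valine synthetase Vars rose by 2.71 (SE 0.18).

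Of the genes for end processing, splicing and export 10 of 19 tested were lower and 2 higher in WT, among them Ssb, which binds the 3′ end of new polymerase III transcripts (log2 change -2.24, SE 0.19), and the 3′ nuclease gene Elac2 (-1.77, SE 0.13). Of 30 modification genes 19 were lower and 6 higher. Adat2, a subunit of the deaminase that makes inosine in anticodons, and Qtrt1, a subunit of the queuosine transferase, rose by 2.82 (SE 0.19) and 2.81 (SE 0.20), and Wdr4, of the 7-methylguanosine complex, fell by 2.60 (SE 0.17). Of 4 genes linked to tRNA cleavage that could be tested 1 was lower in WT, the ribonuclease inhibitor Rnh1 (log2 change -0.66, SE 0.23, adjusted p = 0.0129), 3 in Strep1 and 4 in Strep2. Over all features 42.8% were lower and 37.5% higher in WT, 41.7% lower in Strep1 and 41.5% lower in Strep2. These lists were chosen with earlier results of these data known, and their counts are descriptions.

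No tRNA row was called different between a tagged line and WT. The 1n Strep1 libraries are of another series than those of 1n WT and 1n Strep2, so in 1n cells Strep1 and the series cannot be told apart, whereas all 4n libraries, and 1n Strep2 and WT, share a series. In 4n cells 14 rows were tested and limma called 0 in Strep1 (0.718% of all features were called) and 0 in Strep2 (0.104%). In 1n cells 6 rows were tested, and 0 were called in Strep1 (1.23%) and 0 in Strep2 (0.0738%). At an unadjusted p under 0.05 Strep1 had 5 rows and Strep2 had 2 in 4n cells, and each line had 1 in 1n cells. No other tool was run. The sense sum in 4n Strep1 was 1.35 times that in WT, with no overlap between the libraries (exact permutation p = 0.1, the smallest possible), and in 4n Strep2 it was 1.11 times (exact permutation p = 0.3). In 1n cells the ratios were 0.947 and 0.946 (exact permutation p = 0.4 each).

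The rows of smallest p were largely the same few. In 4n cells chrX.tRNA366-AlaTGC read 0.272, 0.281 and 0.156 RPM in WT, 0.657, 0.390 and 0.684 RPM in Strep1, and 0.544, 0.561 and 0.552 RPM in Strep2. Both lines lay above WT, with log2 differences of 0.97 (SE 0.25, adjusted p = 0.205) and 0.92 (SE 0.25, adjusted p = 0.218), which share the WT libraries. The serine row chr10.tRNA1105-SerTGA differed from WT by 1.04 (SE 0.32, adjusted p = 0.376) in Strep1 and by 0.57 (SE 0.32, adjusted p = 0.479) in Strep2. In 1n cells chrM.tRNA1-LeuTAA was at -0.54 (SE 0.20, adjusted p = 0.218) in Strep1 and -0.99 (SE 0.20, adjusted p = 0.108) in Strep2. The next in 1n Strep1 were chr13.tRNA99-MetCAT at -0.58 (adjusted p = 0.369) and chrX.tRNA366-AlaTGC at 0.51 (adjusted p = 0.423), and in 1n Strep2 chr3.tRNA289-AsnGTT at 0.19 (adjusted p = 0.747) and chrX.tRNA366-AlaTGC at 0.21 (adjusted p = 0.796).

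The lines differed from each other in 1 row. In 4n cells chrM.tRNA1-LeuTAA was higher in Strep1 than in Strep2, with a log2 difference of 1.64 (SE 0.27, adjusted p = 0.0128), and it was 1 of 14 rows tested where 0.763% of all features were called. Against 4n WT, at 1.99 ± 0.232 RPM (SD, n = 3), it stood at 4.02 ± 1.63 in Strep1 and 1.22 ± 0.334 in Strep2, and those differences were not called (adjusted p = 0.376 and 0.323). Without the third 4n Strep2 library the count was 0. The Ensembl gene mt-Nd1, which its interval touches, had group means of 221, 374 and 304 RPM in 4n WT, Strep1 and Strep2. In 1n cells 6 rows were tested between the lines and 0 were called (1.14% of all features), with 2 at an unadjusted p under 0.05, chr13.tRNA99-MetCAT and chrM.tRNA1-LeuTAA (log2 differences -0.77 and 0.45).

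The change between populations was also compared between genotypes, which for Strep1 rests on 1n libraries of different series. Of 18 rows 0 were called for Strep1 against WT (0.152% of all features) and 0 for Strep2 against WT (0.0297%), with 2 and 1 at an unadjusted p under 0.05 in limma. The largest was chrM.tRNA1-LeuTAA in Strep1, with a difference of -1.39 (SE 0.35, adjusted p = 0.226), then chr1.tRNA1004-GluCTC at -0.89 (SE 0.33, adjusted p = 0.767). The third was chrX.tRNA368-AlaTGC at -0.76 (adjusted p = 0.976). In Strep2 the first was chrX.tRNA368-AlaTGC at -0.88 (SE 0.38, adjusted p = 0.593), then chrX.tRNA366-AlaTGC at -0.69 (adjusted p = 0.654) and chr13.tRNA960-ArgTCG at 0.38 (adjusted p = 0.794). Of the genes of tRNA metabolism the aspartate synthetase gene Dars was lower in Strep1 than in WT in both populations. The log2 difference in limma was -0.74 (SE 0.11, adjusted p = 9.78e-04) in 1n cells and -0.62 (SE 0.10, adjusted p = 0.0120) in 4n cells. Only in 4n cells do these libraries share a series. Dars was 1 of 20 synthetases tested, where 1.23% of all features were called in 1n and 0.718% in 4n cells. No other gene of the 6 lists was called against WT, and nothing is read from that count.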

How the data were processed

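Deposited tables of RPM, reads scaled to a common library total, per feature and strand were used for 5 MIWI small RNA and 18 long RNA libraries. The submitters' processing notes list STAR, Bowtie and cutadapt, then DESeq2, DESeq, Salmon 1.3.0 and featureCounts, and the build GRCm39. Which of them made the RPM tables the authors deposited, how reads with several matches were shared and what total the RPM refer to are not given in the sources used here. Each MIWI strand file held 2 columns that match no sample, which were not used. The 4 in vitro slicing libraries were not analysed here. Certain sequences and genes are not reported here.

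The depth, estimated from the RPM worth 1 read, was 33.0 to 63.2 M reads in long RNA and 12.0 to 20.8 M reads in MIWI libraries (M, mega), and floors of 3 reads cover counting error only. Sequences and gene overlaps came from the GRCm39 reference and its GENCODE annotation. Features with at least 0.3 RPM in 3 libraries were tested with limma 3.58.1 (R 4.3.3) on log2(RPM + 0.1), after scaling by a trimmed mean of log ratios, with Benjamini-Hochberg adjustment over all features of a strand table and a false discovery rate of 0.05. Fold changes on that scale understate changes of low rows. The 1n against 4n comparisons were fitted over all 18 libraries and genotype comparisons over the 9 of a population. Strands were compared within MIWI libraries. For sums, an exact permutation test (two-sided) was used. On simulated data, 64 of 100 features changed 2-fold and 95 of 100 changed 4-fold were recovered for 1n against 4n in WT over 25219 features, with 13 false calls, and 69 and 90 for Strep1 against WT in 4n over 21783 features, with 2 false calls.

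Named rows were the 10 highest in MIWI sense and long RNA sense, the 5 highest in MIWI antisense, up to 6 called rows per direction with at least 1 RPM in a group, and otherwise the 3 of smallest p. The tRNA rows and gene lists were chosen with earlier results of these data known. Alternatives were another pseudocount, filter or scaling, a replicate block, leaving out each library, and sums per anticodon name, added after seeing the data.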

Additional observations from a re-analysis of the deposited data

Results flagged for a closer look

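Glycine tRNA rows in MIWI purification 1 stood apart. Their summed sense level was 5.45 RPM there and 2.10 to 2.81 RPM in the other 4 purifications, and the gap was 0.788 of the whole range, above the limit for 5 samples. This was 1 of 10 values examined in this way, and chance marks about 1 in 20. Purification 1 is also the only one of its library series, and whether the series plays a part was not tested.

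The mitochondrial leucine row chrM.tRNA1-LeuTAA differed between the tagged lines in 4n cells, by 1.64 on the log2(RPM + 0.1) scale (limma, adjusted p = 0.0128). All 3 Strep1 libraries, from 2.98 RPM, lay above all 3 Strep2 libraries, up to 1.44 RPM, and neither line was called against WT.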

How the results depend on the processing

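The counts of called rows depended mainly on the filter. No share of all features was taken under the alternatives, so the counts of this section show only how they moved. With every row above 0 in at least 1 library, limma called 71, 68 and 61 rows on the sense strand for 1n against 4n in WT, Strep1 and Strep2, 52, 51 and 49 on the antisense strand, 104 between strands in the MIWI libraries, and 0 between Strep1 and Strep2 in 4n cells. More rows were tested there, at levels of a few reads.

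The log2 ratio of the summed sense RPM, 1n over 4n, was -1.09, -1.60 and -1.32 in WT, Strep1 and Strep2. Scaled libraries gave -1.35, -1.78 and -1.44. Without the row of highest mean it was -0.93 in WT and -1.17 in Strep2, and the cause was not tested.

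Leaving out 1 library at a time gave 0 to 1 rows between Strep1 and Strep2 in 4n cells. For 1n against 4n it gave 14 to 16, 16 to 17 and 15 to 18 sense rows in WT, Strep1 and Strep2. On the antisense strand it gave 6 to 7, 7 to 8 and 7 to 8 rows, against 8 in each genotype with all libraries. The MIWI sum stayed between 1064 and 1144 RPM.

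Same-numbered libraries did not deviate together in the 9 comparisons, with correlations of -0.493 to 0.365 and no comparison with every pair over 0.1. With a replicate block limma called 16, 17 and 17 sense rows for 1n against 4n, 7, 8 and 8 antisense rows, 0 against WT and 1 between the lines in 4n cells.

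Summed per anticodon name, an alternative chosen after seeing the data, limma called 14, 13 and 15 of 17 sums on the sense strand for 1n against 4n in WT, Strep1 and Strep2, and 0 against WT. In the fit of single rows 80.3%, 80% and 80.1% of all features were called for 1n against 4n, and nothing is read from the counts of sums. No result reversed. At an estimated 220 to 1001 tRNA reads per long RNA library, most rows lie too low for a test.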
